A study of Mus musculus with 2 samples.

Results

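A group of 9 genes of the antioxidant defence was followed through the lung endothelium of mice after injection of melanoma cells: Hmox1, Nqo1, Gclm, Gclc, Txnrd1, Srxn1, Nfe2l2, Txnip and Sod2. They were taken by symbol, 9 of the 31053 genes listed, as known members of the pathway and by no threshold on a measured value. The list was nevertheless drawn up with earlier results of these data known. Their mRNA was counted as unique molecular identifiers (UMIs, barcodes that mark each captured mRNA molecule) in single-cell libraries, and the counts were summed over the barcodes of each endothelial class. Barcodes with 1000 to 5000 genes and under 20% mitochondrial UMIs were kept. A barcode was an aerocyte with UMIs of at least 2 of Ednrb, Fibin and Tbx2, a vein cell with at least 2 of Slc6a2, Car8 and Bst1, an artery cell with at least 2 of Gja5, Bmx and Fbln5, and a general capillary cell with at least 2 of Gpihbp1, Aplnr, Kit and Lpl and none of those combinations.

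The study asked how lung endothelial cells respond as circulating tumour cells settle in the lung. Wild-type C57BL/6 mice received either phosphate-buffered saline (control) or 200000 B16-F10 melanoma cells (metastatic), a mouse line syngeneic with the strain, through the tail vein. The mice were male and young adult by the published methods. Lungs were taken 6 h later, and PECAM1-positive cells were sorted without selection against the leukocyte antigen PTPRC. Each group was 1 library of cells pooled from 2 mice, so differences between the groups were not tested and the spread between mice is unknown. All intervals below are at 95% and take no account of the spread between mice. Those of levels and log2 ratios are exact and cover counting error only. Shares have exact intervals over barcodes, which are not replicates of a group. Differences between log2 ratios have normal intervals.

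NRF2, encoded by Nfe2l2, is the transcription factor that switches on much of this defence. KEAP1 normally holds NRF2 in the cytoplasm and delivers it for degradation, and oxidants or electrophiles that modify KEAP1 release it to antioxidant response elements in DNA, so that its activity is set largely at the protein level. Its targets make glutathione (Gclc and Gclm), reduce thioredoxin and peroxiredoxins (Txnrd1 and Srxn1), and detoxify quinones and heme (Nqo1 and Hmox1). TXNIP stands apart: it is an arrestin-family protein that binds thioredoxin and restrains glucose uptake, and its gene is driven by the glucose-responsive factors MondoA and ChREBP. SOD2, the mitochondrial superoxide dismutase, is best known as a target of inflammatory NF-kB signalling.

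The promoter sequences of 3 members are shown because each holds a match to an element of a kind known to regulate such genes. Whether a match is the regulatory site of its gene was not tested. RefSeq windows of 300 bases around the transcription start, 250 before and 50 after, on GRCm38.p6 were at hand for 7 of the 9 members (not Hmox1 and Gclc). Both strands were searched for the core of the antioxidant response element (TGACNNNGC), the E-box (CACGTG) and a carbohydrate response element, a pair of E-box-like motifs with a short spacer. Capitals mark the match. The Txnip window, chr3:96557707-96558006 on the plus strand, held the carbohydrate response element 85 bases before the start.
Txnip: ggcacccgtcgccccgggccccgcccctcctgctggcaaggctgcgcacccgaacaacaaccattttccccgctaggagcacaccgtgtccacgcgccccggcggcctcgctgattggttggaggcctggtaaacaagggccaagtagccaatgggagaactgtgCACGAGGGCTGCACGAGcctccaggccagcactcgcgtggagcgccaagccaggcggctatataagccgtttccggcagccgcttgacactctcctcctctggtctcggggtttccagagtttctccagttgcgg
The Gclm window, chr3:122245307-122245606 on the plus strand, held the antioxidant response element core on the opposite strand, 134 bases before the start.
Gclm: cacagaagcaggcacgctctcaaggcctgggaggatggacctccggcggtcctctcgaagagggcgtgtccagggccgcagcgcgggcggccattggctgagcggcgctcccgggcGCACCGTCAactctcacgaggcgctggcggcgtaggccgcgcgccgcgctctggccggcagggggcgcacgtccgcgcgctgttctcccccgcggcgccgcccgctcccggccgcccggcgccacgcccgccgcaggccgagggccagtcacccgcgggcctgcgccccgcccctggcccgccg
Txnrd1 had 3 start windows, and the one at chr10:82858956-82859255 on the plus strand held the core on the opposite strand, 92 bases before the start.
Txnrd1: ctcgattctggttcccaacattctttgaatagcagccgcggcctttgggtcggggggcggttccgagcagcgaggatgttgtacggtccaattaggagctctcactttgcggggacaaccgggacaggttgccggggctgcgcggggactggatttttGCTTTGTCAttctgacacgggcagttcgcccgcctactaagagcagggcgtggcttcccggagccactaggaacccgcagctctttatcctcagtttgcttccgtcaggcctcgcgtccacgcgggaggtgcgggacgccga
The core also stood 29 bases after the start of Srxn1 and 240 bases before that of Nfe2l2, and it was not in the windows of Nqo1 and Sod2. Of all 32851 promoter windows of this length, 12.4% held the core, 7.15% an E-box and 0.365% the carbohydrate response element. No E-box was in the members' windows. These matches describe letters in a window and say nothing about whether a factor was bound.

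In all, 67929614 UMIs were counted in control and 64733724 in metastatic, and 7134 and 6466 barcodes were kept. The general capillary class had 5020 control and 4519 metastatic barcodes, the aerocytes 1364 and 1086, the artery class 63 and 59, and the vein class 247 and 304. Medians of UMIs per barcode lay between 5950.5 and 8422 over the 4 classes and both libraries. Control barcodes of several classes (46) and those of none (394) were left out of the classes, as were 32 and 466 in the metastatic library. Only 16 barcodes were kept in both libraries, but 506 control and 825 metastatic barcodes also had at least 100 UMIs in the other library. The defining markers of each class were highest in that class, which the rule itself favours. Those of aerocytes summed to 2997 and 2435 CPM (UMIs per 1000000 UMIs of the class) in aerocytes against 52.3 and 44.6 CPM in general capillary cells. The artery class was less clear, with artery markers at 698 and 557 CPM and general capillary markers at 2430 and 1857 CPM. In veins, vein markers were at 2310 and 2041 CPM and general capillary markers at 1637 and 1433 CPM. Whether these classes hold capillary cells next to arteries or veins was not tested. Other cells' RNA was also present. Macrophage or monocyte markers (all 6 detected) summed to 336 CPM in control and 222 CPM in metastatic general capillary cells, and to 79.7 and 61.8 CPM in aerocytes. Red cell markers were at 1959 and 824 CPM and epithelial markers at 1683 and 990 CPM in control and metastatic general capillary cells. In aerocytes red cell markers were at 1295 and 847 CPM, epithelial markers at 630 and 90.9 CPM and platelet markers at 76.5 and 157 CPM. The part of this RNA in the differences below was not tested, except where values without barcodes carrying other cell types' markers are given. That filter used the macrophage, neutrophil, lymphoid, platelet, fibroblast and epithelial markers, and a barcode with a lone UMI of a list was kept. Red cell markers were not part of it, so red cell RNA stayed in those values. In the vein class macrophage or monocyte markers were at 32.2 CPM in control and 670 CPM in the metastatic library, and epithelial markers were at 123 and 3641 CPM.

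The clearest difference between the libraries was in Txnip (ENSMUSG00000038393, chr3:96557957-96561883, plus strand), the thioredoxin-binding arrestin. In general capillary cells it stood at 1606 CPM (1592 to 1620, 51554 UMIs) in the control library and at 1036 CPM (1025 to 1048, 31388 UMIs) in the metastatic library. In aerocytes the levels were 1238 CPM (1218 to 1259) and 824 CPM (806 to 843). The intervals lay far apart, with the metastatic library lower in both capillary classes.

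The artery class held 1253 CPM of Txnip (1156 to 1356) in control and 822 CPM (744 to 907) in metastatic, and the vein class 923 CPM (884 to 964) and 663 CPM (632 to 694). Metastatic was thus the lower library in all 4 classes, with no overlap of intervals in any of them. As log2 ratios of metastatic over control these are -0.63 (-0.65 to -0.61) in general capillary cells, -0.59 (-0.63 to -0.55) in aerocytes, -0.61 (-0.79 to -0.42) in arteries and -0.48 (-0.57 to -0.39) in veins. Of the 11220 genes with at least 100 UMIs over both libraries in general capillary cells, 1.49% had a lower ratio than Txnip, and in aerocytes 1.22% of 9504 did.

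The difference was also seen cell by cell. With every barcode thinned to 2000 UMIs, which left out 73 control and 58 metastatic barcodes too shallow for it, 90.8% of control general capillary cells (89.9 to 91.6) and 77.4% of metastatic ones (76.2 to 78.7) had a Txnip UMI. Before thinning the shares were 98.0% and 93.8%, at median depths of 5950.5 and 6275 UMIs. In aerocytes the thinned shares were 84.9% (82.9 to 86.8) and 72.7% (69.9 to 75.4). The top 1% of general capillary barcodes held 3.99% of the Txnip UMIs in control and 4.91% in metastatic, so no small set of barcodes carried the level.

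Barcodes with lymphoid markers, sorted along with the endothelial cells, did not show the same direction for Txnip. They held 543 CPM (467 to 627, 184 UMIs in 65 barcodes) in control and 604 CPM (525 to 692, 208 UMIs in 63 barcodes) in metastatic, with overlapping intervals. In barcodes with macrophage markers the level was 433 CPM (376 to 496) in 39 control barcodes and 323 CPM (276 to 375) in 40 metastatic ones, with the metastatic library lower and intervals that just failed to overlap. The difference between these cells and the endothelial classes was not tested.

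**Figure D1:**
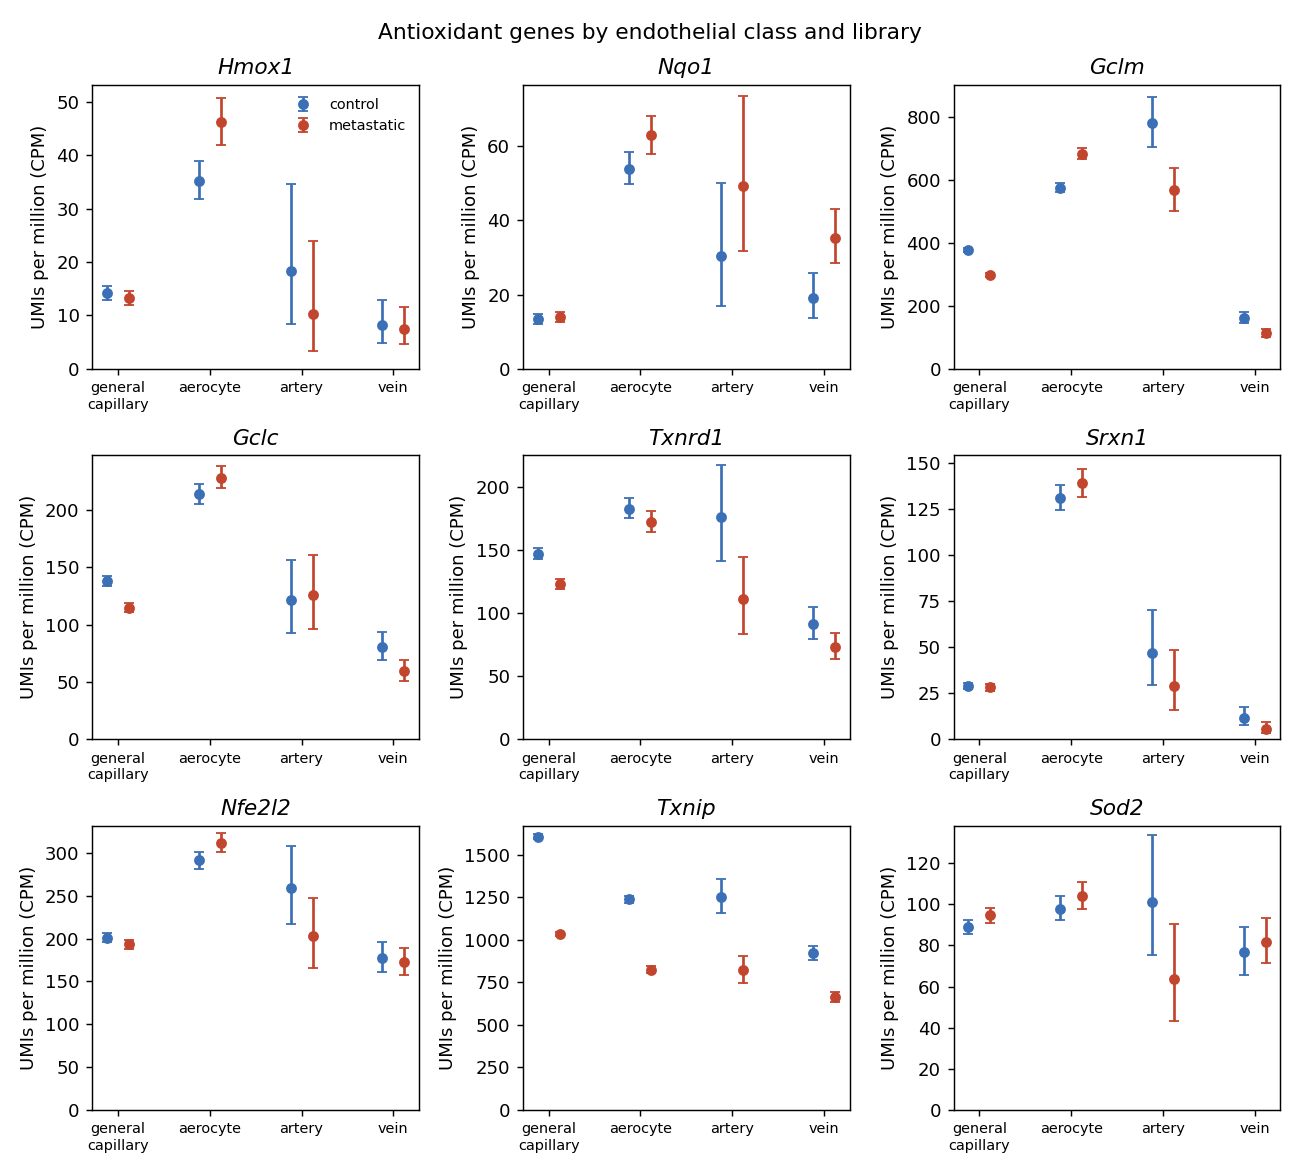
Level of each gene in CPM (vertical axis, from 0, a scale of its own in each panel) by endothelial class, with the control library in blue and the metastatic library in red. Points are 1 library each and bars are exact 95% Poisson intervals for counting error. Txnip is lower in the metastatic library in all 4 classes, Gclm is higher in aerocytes and lower elsewhere, and Hmox1, Nqo1 and Srxn1 stand above the general capillary level in aerocytes.

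The plot of levels by class shows a second pattern, in the genes of glutathione synthesis. Gclm (ENSMUSG00000028124, chr3:122245557-122270732, plus strand) encodes the modifier subunit of glutamate-cysteine ligase, the rate-limiting enzyme of glutathione synthesis. Its level in general capillary cells was 377 CPM (371 to 384, 12115 UMIs) in control and 297 CPM (291 to 304, 9006 UMIs) in metastatic. In aerocytes it was 576 CPM (562 to 590, 6527 UMIs) in control and 685 CPM (668 to 702, 6426 UMIs) in metastatic. The direction was therefore opposite in these capillary classes, and in neither did the intervals overlap. Subtracting a profile of free RNA, at a share of UMIs that other genes of the profile did not allow, put Gclm at a log2 ratio of -0.30 in aerocytes, and the same subtraction at a share set by the lowest such gene left it at 0.25.

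The artery class had 783 CPM of Gclm (707 to 865) in control and 567 CPM (502 to 638) in metastatic, and the vein class 162 CPM (146 to 180) and 113 CPM (100 to 126). The artery and vein classes were both on the side of the general capillary cells, with the metastatic library lower. The log2 ratios were -0.34 (-0.38 to -0.30) in general capillary cells, 0.25 (0.20 to 0.30) in aerocytes, -0.46 (-0.69 to -0.24) in arteries and -0.52 (-0.75 to -0.30) in veins.

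The ratio of Gclm in aerocytes exceeded that in general capillary cells by 0.59 log2 units (0.53 to 0.66). Of the 9461 genes that passed the count minimum in both classes, 1.11% had a larger difference in that direction. Gclm was the single member past 0.5, against a background of 1.88% of those genes, and none was past 0.5 in the other direction (background 1.42%).

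The share of aerocytes with a Gclm UMI depended on the depth at which it was read. At 2000 UMIs it was 59.6% (56.9 to 62.2) in control and 60.1% (57.1 to 63.1) in metastatic, and at 1000 UMIs 38.3% (35.8 to 41.0) and 43.6% (40.6 to 46.6). The metastatic share was the higher at both depths, with intervals that overlapped. In general capillary cells the share at 2000 UMIs was 42.9% (41.5 to 44.3) in control and 37.8% (36.4 to 39.3) in metastatic. Barcodes with lymphoid markers, given for comparison, had a Gclm UMI in 3.08% of 65 control and 11.1% of 63 metastatic barcodes at the same depth. Whether those UMIs were their own mRNA or other cells' RNA was not tested. Before thinning, a Gclm UMI was seen in 9.23% and 17.5% of the lymphoid barcodes, whose median depths were 4783 and 5057 UMIs. It was seen in 71.0% and 68.2% of general capillary cells, and in 89.4% and 89.2% of aerocytes at median depths of 7911 and 8139.5 UMIs.

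Gclc (ENSMUSG00000032350, chr9:77754535-77794485, plus strand) encodes the catalytic subunit of the same ligase. It was at 138 CPM (134 to 142) in control and 115 CPM (111 to 118) in metastatic general capillary cells, and at 214 CPM (206 to 223) and 228 CPM (219 to 238) in aerocytes. Metastatic was clearly lower in the first, while in aerocytes the intervals overlapped. The log2 ratios were -0.27 (-0.33 to -0.20) and 0.09 (0.01 to 0.18), a difference of 0.36 (0.26 to 0.47) that 4.35% of genes exceeded. In veins Gclc stood at 80.7 CPM (69.3 to 93.4) and 59.4 CPM (50.5 to 69.4), a log2 ratio of -0.44 (-0.76 to -0.12) that was 0.46 with barcodes thinned to 2000 UMIs, and in arteries at 122 CPM and 125 CPM with wide, overlapping intervals. Over all their UMIs both ligase subunits thus had the same sign in general capillary cells, in aerocytes and in veins.

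**Figure D2:**
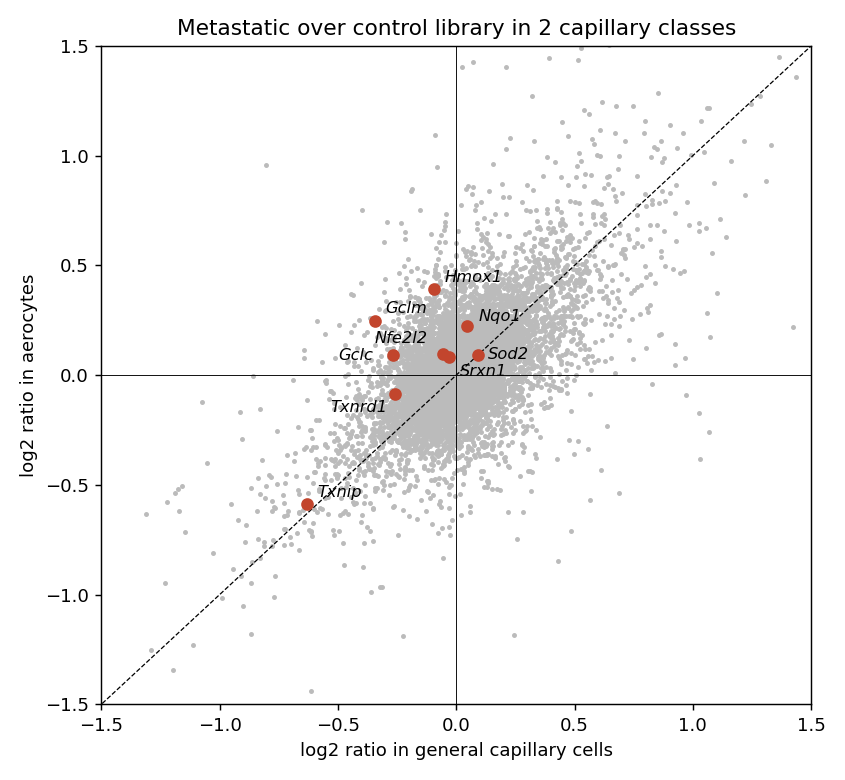
Log2 ratio of metastatic over control in general capillary cells (horizontal axis) against aerocytes (vertical axis) for the 9461 genes with at least 100 UMIs in each class (grey), with the antioxidant genes in red and the line of equal ratios dashed. Genes outside the axes, 23 in number, are not drawn. Txnip lies near the line of equal ratios at -0.63 and -0.59, while Gclm, at -0.34 and 0.25, lies above it.

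Next came the thioredoxin and peroxiredoxin repair enzymes. Txnrd1 (ENSMUSG00000020250, chr10:82833951-82897712, plus strand) encodes cytosolic thioredoxin reductase, which uses NADPH to recharge thioredoxin. It was at 147 CPM (143 to 152) in control and 123 CPM (119 to 127) in metastatic general capillary cells, with the metastatic library lower and no overlap. In aerocytes it was at 183 CPM (175 to 191) and 172 CPM (164 to 181), with overlapping intervals.

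The log2 ratios of Txnrd1 were -0.26 (-0.32 to -0.19) in general capillary cells, -0.09 (-0.18 to 0.01) in aerocytes, -0.67 (-1.19 to -0.16) in arteries and -0.32 (-0.61 to -0.03) in veins. The sign was the same in all 4 classes (in general capillary cells it was 0.20 under the free RNA subtraction at the high share), and the artery value rests on 87 control and 54 metastatic UMIs. Srxn1 (ENSMUSG00000032802, chr2:152105516-152111376, plus strand) encodes sulfiredoxin, which reactivates over-oxidised peroxiredoxins. Its levels were 28.8 CPM (27.0 to 30.8) and 28.3 CPM (26.4 to 30.2) in general capillary cells, and 131 CPM (124 to 138) and 139 CPM (131 to 147) in aerocytes. In neither class could a difference between the libraries be told from counting error, with log2 ratios of -0.03 (-0.17 to 0.11) and 0.08 (-0.02 to 0.19).

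Hmox1 (ENSMUSG00000005413, chr8:75093621-75100589, plus strand) encodes heme oxygenase 1, which breaks heme down to biliverdin, iron and carbon monoxide. In general capillary cells it was at 14.1 CPM (12.8 to 15.5) in control and 13.2 CPM (11.9 to 14.6) in metastatic, and in aerocytes at 35.2 CPM (31.9 to 38.9, 399 UMIs) and 46.2 CPM (42.0 to 50.8, 434 UMIs). In aerocytes the intervals were parted, with metastatic higher, and in general capillary cells they overlapped. The log2 ratios were -0.10 (-0.29 to 0.10) and 0.39 (0.19 to 0.59), which differed by 0.49 (0.21 to 0.76), more than in all but 1.99% of genes.

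Macrophages are rich in heme oxygenase 1, and barcodes with macrophage markers held 95.3 CPM of Hmox1 (69.8 to 127) in control and 64.2 CPM (44.5 to 89.7) in metastatic. Without barcodes that carried another cell type's markers the aerocyte log2 ratio of Hmox1 was 0.53. The cause of the difference was not tested. At 2000 UMIs, 6.13% of control aerocytes (4.91 to 7.54) and 9.03% of metastatic ones (7.38 to 10.9) had an Hmox1 UMI, and none of the lymphoid barcodes had (0 of 65 and 0 of 63, which allow up to 5.52% and 5.69%). The unthinned aerocyte shares were 20.7% and 27.2%.

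Nqo1 (ENSMUSG00000003849, chr8:107388225-107403206, minus strand) encodes NAD(P)H quinone dehydrogenase 1. It was at 13.4 CPM (12.2 to 14.7) and 13.8 CPM (12.5 to 15.2) in general capillary cells, and at 53.9 CPM (49.7 to 58.3) and 62.9 CPM (57.9 to 68.1) in aerocytes. The libraries could not be told apart in the first, and in aerocytes the intervals met at their edges with metastatic higher, at a log2 ratio of 0.22 (0.06 to 0.39). In veins Nqo1 stood at 19.0 CPM (13.7 to 25.7, 42 UMIs) in control and 35.1 CPM (28.4 to 43.0, 94 UMIs) in metastatic, a log2 ratio of 0.88 (0.34 to 1.44). The top 1% of metastatic vein barcodes held 17.0% of those UMIs, and the ratio was 0.99 without barcodes carrying other cell types' markers. The part of the epithelial and macrophage RNA of that class in the value was not otherwise tested.

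Nfe2l2 (ENSMUSG00000015839, chr2:75675513-75704641, minus strand), the gene of NRF2 itself, was nearly level. It was at 201 CPM (196 to 206) and 193 CPM (188 to 198) in general capillary cells and at 291 CPM (281 to 301) and 312 CPM (301 to 323) in aerocytes. The log2 ratios were -0.06 (-0.11 to -0.01) and 0.10 (0.03 to 0.17), small and of opposite sign. Sod2 (ENSMUSG00000006818, chr17:13006846-13040063, plus strand) was at 88.9 CPM (85.7 to 92.2) and 94.6 CPM (91.2 to 98.1) in general capillary cells and at 97.9 CPM (92.2 to 104) and 104 CPM (97.9 to 111) in aerocytes. Its log2 ratio was 0.09 in both, and in both the intervals of the levels overlapped.

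The artery and vein classes gave few UMIs for these less abundant mRNAs. In arteries Hmox1 was at 18.3 CPM in control and 10.3 CPM in metastatic (9 and 5 UMIs), Nqo1 at 30.4 and 49.3 CPM, and Srxn1 at 46.6 and 28.8 CPM. Nfe2l2 was at 260 and 204 CPM there, Sod2 at 101 and 63.7 CPM and Txnrd1 at 176 and 111 CPM. Except for Txnrd1, each of these ratios had an interval that held 0.

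In veins Hmox1 was at 8.16 CPM in control and 7.47 CPM in metastatic, Nfe2l2 at 178 and 172 CPM, and Sod2 at 76.6 and 81.8 CPM, with overlapping intervals throughout. Srxn1 was at 11.8 CPM (7.70 to 17.3, 26 UMIs) and 5.61 CPM (3.14 to 9.25, 15 UMIs), and its log2 ratio of -1.07 (-2.09 to -0.10) was 0.11 with barcodes thinned to 2000 UMIs. Txnrd1 was at 91.6 and 73.3 CPM. Counts of this size did not settle a direction for Srxn1 in veins.

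**Figure D3:**
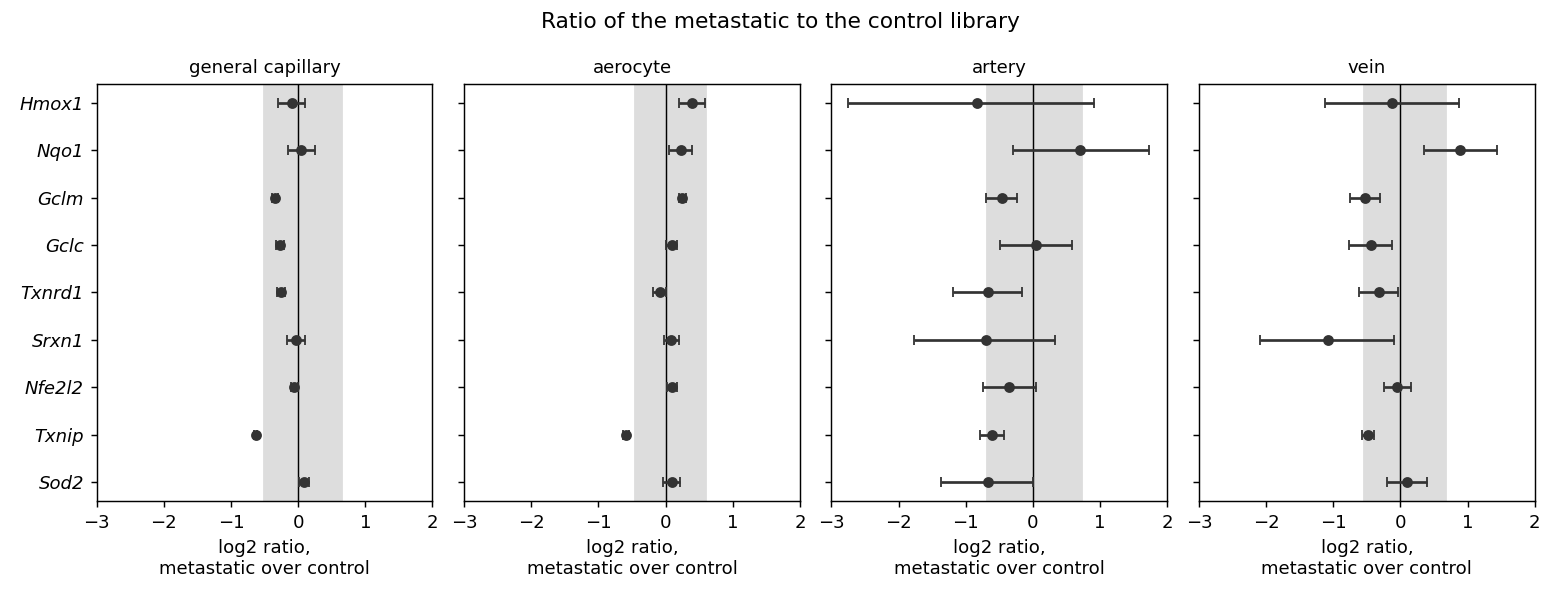
Log2 ratio of metastatic over control (horizontal axis) for each gene in each class, with exact 95% intervals for counting error as bars. The grey band holds the central 95% of all genes with at least 100 UMIs in that class. Txnip falls outside the band in both capillary classes, and the bars are wide in arteries, which had 63 and 59 barcodes. Nqo1 and Srxn1 in veins and Hmox1 and Srxn1 in arteries also lie outside it. Of these only Nqo1 in veins had at least 100 UMIs.

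Under the free RNA subtraction at the high share, the aerocyte log2 ratios of Gclc, Nqo1, Srxn1 and Nfe2l2 were also turned, to -0.43, -0.31, -0.44 and -0.31.

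Read as a set, few of the genes were past a log2 ratio of 0.5 in size with at least 100 UMIs. In general capillary cells, where all 9 had enough UMIs, 1 was lower (Txnip) and 0 higher, against 2.59% and 4.88% of all genes. Aerocytes gave 1 lower (Txnip) and 0 higher, against 1.89% and 3.82%. In arteries, where 5 of the 9 passed the count minimum, 2 were lower (Txnip and Txnrd1) and 0 higher, against 6.4% and 7.22%. In veins, where 7 passed, 1 was lower (Gclm) and 1 higher (Nqo1), against 3.43% and 5% (background percentages are of all genes with at least 100 UMIs in that class).

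Over all 9 genes the median log2 ratio was -0.10 in general capillary cells, 0.09 in aerocytes, -0.61 in arteries and -0.32 in veins. Medians over all genes with at least 100 UMIs in the class lay between 0.00 and 0.03. The sets are unlike in the artery and vein classes, as only 5 of the 9 genes reached that minimum in arteries and 7 in veins. In general capillary cells 5 of the 9 intervals of the ratio lay below 0 (Gclm, Gclc, Txnrd1, Nfe2l2 and Txnip) and 1 above (Sod2), where 16.3% and 24.7% of all genes did. In aerocytes 1 lay below (Txnip) and 5 above (Hmox1, Nqo1, Gclm, Gclc and Nfe2l2), where 11% and 16% of all genes did. An interval off 0 is common at these counts and takes no account of the spread between mice.

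The classes also differed from each other. Aerocytes, the thin cells that line the gas-exchange surface, had at least 2-fold the level of general capillary cells in both libraries for 3 of the 9 genes, namely Srxn1, Nqo1 and Hmox1, where 3.73% of all genes did. Srxn1 was 4.54-fold higher in control and 4.92-fold in metastatic, Nqo1 4.02-fold and 4.54-fold, while Hmox1 was higher by 1.32 and 1.81 log2 units. No member was 2-fold lower in aerocytes (background 4.58%).

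The other NRF2 targets were also higher in aerocytes, by less. Gclm was 1.53-fold higher in control and 2.30-fold in metastatic, Gclc 1.55-fold and 1.99-fold, Nfe2l2 1.45-fold and 1.61-fold, and Txnrd1 1.24-fold and 1.40-fold. The gap between the capillary classes was wider in the metastatic library for each of these and for Hmox1, Nqo1 and Srxn1. It widened most for Gclm, then Hmox1 and Gclc, by the differences of log2 ratios given above. Those of Txnrd1 and Nfe2l2 were 0.17 (0.06 to 0.28) and 0.16 (0.07 to 0.24), exceeded by 15.7% and 17.6% of genes. Those of Nqo1 and Srxn1, 0.18 (-0.08 to 0.43) and 0.11 (-0.06 to 0.29), had intervals that held 0. Txnip alone was lower in aerocytes, at 0.771 of the general capillary level in control and 0.796 in metastatic.

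Arteries had 2-fold or more of the general capillary level in both libraries for Nqo1 only (background 3%), at 2.27-fold and 3.57-fold, on 15 and 24 UMIs, and none was 2-fold lower (background 5.1%). Gclm in arteries was at 2.07-fold in control and 1.91-fold in metastatic. In control the order of Gclm was artery, aerocyte, general capillary and vein with no overlap of neighbouring intervals. In metastatic the aerocytes stood first and the arteries second, again without overlap.

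Veins were the low class for most of the genes. Gclm stood at 0.430 of the general capillary level in control and 0.380 in metastatic, and Srxn1 at 0.409 and 0.198, the 2 members past 2-fold lower in both libraries (background 3.23%). None was 2-fold higher (background 3.32%). Txnip was at 0.575 and 0.639, Gclc at 0.585 and 0.519 and Txnrd1 at 0.621 and 0.594. Nqo1 was the exception, at 1.42-fold and 2.54-fold.

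The order of levels was read class by class. Aerocytes stood first in both libraries for Hmox1, Nqo1, Gclc, Txnrd1, Srxn1 and Nfe2l2. However, the aerocyte and artery intervals overlapped for Hmox1, Nqo1, Txnrd1 and Nfe2l2 in control, and for Nqo1 in metastatic as well. General capillary cells stood first for Txnip without overlap. For Sod2 neighbouring classes overlapped everywhere except aerocytes and general capillary cells in control, at 97.9 CPM and 88.9 CPM, whose edges at 92.24 and 92.22 CPM were almost level.

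Likeness of pattern was measured as Pearson's r of log2(CPM + 1) over 8 points, the 4 classes in 2 libraries, among 9605 genes with at least 10 CPM in any of them. The points share libraries and depth, so the values are descriptions. All points count equally, although the artery points rest on 9 and 5 UMIs for Hmox1 and 23 and 14 for Srxn1. How high r would be for the nearest of so many genes without any relation was not tested. Among the members, Gclc and Srxn1 were most alike (r = 0.98), followed by Hmox1 and Nfe2l2 (r = 0.96), whereas Txnip had r between -0.45 (Nqo1) and 0.66 (Txnrd1) with the others. Across all genes the nearest to Txnip were Sbf2 (r = 0.95), Hspb8 and Cpsf4 (both 0.94), and the nearest to Gclm were Hsdl1 (0.98), Adam9 and Clock (both 0.97). Srxn1 was closest to Ly6c1 (0.99), Tanc1 and Rasgrp2 (both 0.98), and Hmox1 to Ppard, Tbpl1 (both 0.99) and Cab39 (0.98). For Nqo1 the nearest were Enpp5, Mrpl54 (both 0.97) and Tmem160 (0.95), for Gclc Acbd5, Ppp2r2a and Adrm1 (all 0.98), and for Txnrd1 Enpp2, Prpf3 and Gm16141 (all 0.98). Those of Sod2 were Scaf8, Polb (both 0.99) and Rad9a (0.98).

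The wider pathway was read in general capillary cells from a list of 75 further genes in 9 groups, of which 68 had at least 100 UMIs. Of these, 3 were past a log2 ratio of 0.5 higher and 1 lower, beside 4.88% and 2.59% of all genes, and their median was 0.01. The 3 higher were Arrdc4, Cybb and Sod3, and the lower was Mlxip. Without barcodes carrying other cell types' markers Arrdc4 and Mlxip stayed past the limit, at 1.09 and -0.72, whereas Cybb was left with 25 UMIs at a ratio of -0.30 and Sod3 with 55 UMIs at 0.75, both under the count minimum.

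The largest ratios lay in the group of Txnip's relatives and regulators, where 1 of 5 was higher and 1 lower. Arrdc4, the arrestin-family paralog of Txnip and like it a MondoA target, was at 27.4 CPM in control and 56.8 CPM in metastatic (878 and 1721 UMIs), a log2 ratio of 1.05 (0.94 to 1.17). In aerocytes it was at 34.5 CPM and 54.9 CPM, a ratio of 0.67 (0.48 to 0.86). Arrdc4 was thus higher in the metastatic library in the same cells in which Txnip was lower.

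Mlxip, the gene of MondoA, was at 58.0 CPM in control and 35.0 CPM in metastatic general capillary cells, a log2 ratio of -0.73 (-0.84 to -0.62). It was lower in aerocytes as well, at -0.58 (-0.76 to -0.41), and in veins at -1.07 (-1.63 to -0.52). Of the other arrestin relatives, named after their values were seen, Arrdc2 was at -0.50 (-0.66 to -0.34) in general capillary cells, just short of the limit, and Arrdc3 was at 0.36 (0.20 to 0.51). Txnip's relatives therefore did not all share its direction.

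Among the regulators of NRF2, 0 of 8 was past 0.5. The autophagy adaptor gene Sqstm1 was at -0.02 (-0.07 to 0.03) and the related factor Nfe2l1 at 0.01 (-0.04 to 0.06). Keap1, the NRF2 inhibitor, named here after its value was seen, was at 115 CPM and 98.2 CPM, a ratio of -0.23 (-0.30 to -0.16).

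In glutathione synthesis and use, 0 of 13 was past 0.5, the median was -0.13, and 7 of the 13 intervals lay below 0 and 1 above, beside the 16.3% and 24.7% of all genes given above. The conjugating enzyme gene Gstm1 was at 595 CPM in control and 506 CPM in metastatic, a ratio of -0.24 (-0.27 to -0.20), and Gpx4, whose product reduces lipid peroxides, at 389 CPM and 428 CPM, a ratio of 0.14 (0.10 to 0.17). Gsr, glutathione reductase, named after its value was seen, was lowest of the group at -0.42 (-0.50 to -0.33) in general capillary cells and at -0.06 (-0.17 to 0.04) in aerocytes. Gstm1 has close paralogs, and reads shared between them may be counted for any of them or dropped.

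The thioredoxin and peroxiredoxin group had 0 of 12 past 0.5, a median of 0.03, and 5 intervals above 0 and 2 below. Thioredoxin itself, Txn1, was at 727 CPM in control and 825 CPM in metastatic, a ratio of 0.18 (0.16 to 0.21), and Prdx1 at 433 CPM and 508 CPM, a ratio of 0.23 (0.20 to 0.26). In aerocytes Prdx1 was at 0.26 (0.21 to 0.31). Prdx1 is a known NRF2 target, and its sign in general capillary cells was opposite to that of Gclm, Gclc and Txnrd1.

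**Figure D4:**
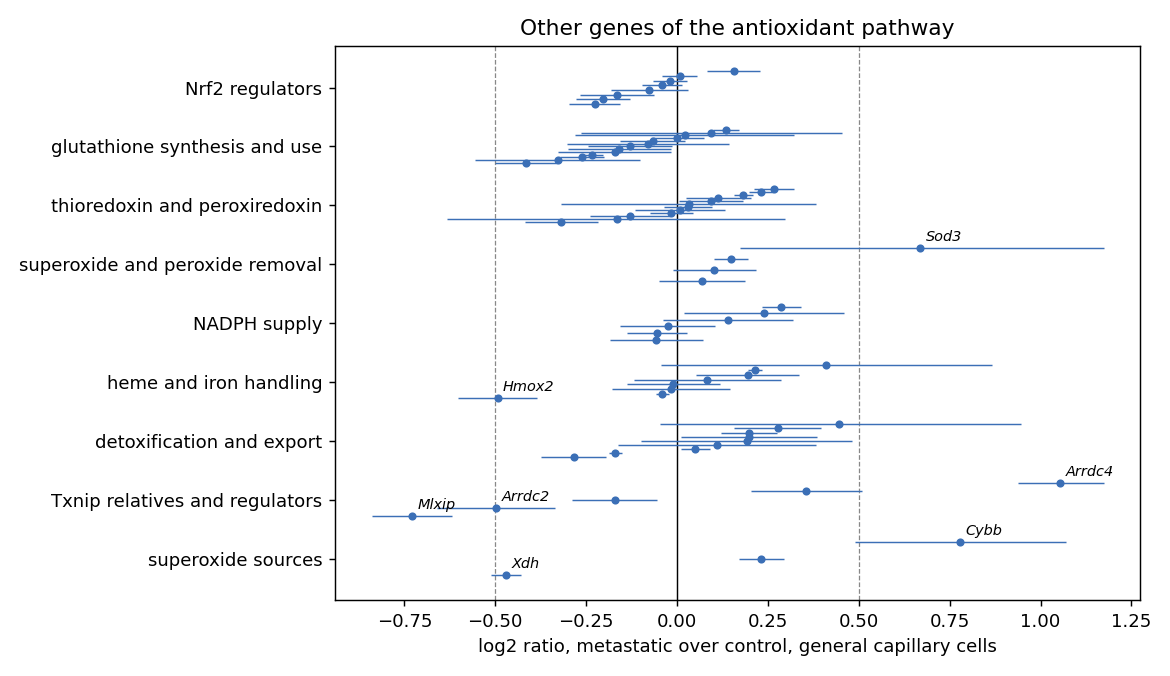
Log2 ratio of metastatic over control in general capillary cells (horizontal axis) for the 68 pathway genes with at least 100 UMIs, by group, with exact 95% intervals for counting error. Dashed lines mark 0.5 in each direction. Most genes lie between the dashed lines, Arrdc4 lies farthest right at 1.05 and Mlxip farthest left at -0.73.

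Superoxide and peroxide removal had 1 of 4 higher. This was Sod3, the extracellular superoxide dismutase, at 1.81 CPM and 2.87 CPM, which rests on 58 and 87 UMIs and had a ratio of 0.67 (0.17 to 1.17). The abundant Sod1 was at 0.15 (0.10 to 0.19) and catalase, Cat, at 0.10 (-0.01 to 0.22).

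Of the superoxide sources 1 of 3 was higher. Cybb, the phagocyte NADPH oxidase, was at 5.05 CPM and 8.65 CPM, a ratio of 0.78 (0.49 to 1.07). In the vein class it had 1 UMI in control and 135 in metastatic, beside the macrophage markers of that class. Xdh, the gene of xanthine dehydrogenase, was at 357 CPM and 258 CPM, a ratio of -0.47 (-0.51 to -0.43), and Cyba at 0.23 (0.17 to 0.29).

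The remaining groups held no gene past 0.5. In heme and iron handling, with 8 genes, the ferritin chains Fth1 and Ftl1 were at -0.04 (-0.06 to -0.02) and 0.22 (0.20 to 0.23), and Hmox2, the constitutive heme oxygenase, named after its value was seen, was at -0.49 (-0.60 to -0.38). In NADPH supply, with 6 genes, Taldo1 was at 0.29 (0.23 to 0.34) and Tkt at -0.06 (-0.14 to 0.03). In detoxification and export, with 9 genes, Aldh2 was at -0.17 (-0.19 to -0.15) and Akr1a1 at 0.05 (0.01 to 0.09).

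Inhbb, the gene of an activin subunit, was named by the study as a marker of reactive capillary cells. General capillary barcodes were split by an Inhbb UMI after the data were seen, into 116 with and 4904 without in control and 338 with and 4181 without in metastatic. Median depths with and without were 6767.5 and 5935 UMIs in control and 7244 and 6193 in metastatic, and the share of barcodes with a UMI depends on depth.

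In the metastatic library, barcodes with Inhbb held more of several NRF2 targets. Txnrd1 was at 200 CPM with and 116 CPM without, a log2 ratio of 0.79 (0.66 to 0.92), Gclm at 433 CPM and 284 CPM (0.61, 0.52 to 0.70), Srxn1 at 41.9 CPM and 26.9 CPM (0.64, 0.35 to 0.92), and Nfe2l2 at 239 CPM and 189 CPM (0.34, 0.23 to 0.46). Hmox1 was at 18.1 CPM and 12.7 CPM (0.51, 0.05 to 0.94). Gclc, at 0.11 (-0.05 to 0.27), and Nqo1, at 0.40 (-0.06 to 0.83), had intervals that held 0. Txnip was lower, at 734 CPM with and 1067 CPM without, a ratio of -0.54 (-0.60 to -0.47). Among genes with at least 1000 UMIs, 6.46% were past 0.5 higher and 7.04% lower in this split, and of the 6 members with that many, Txnrd1 and Gclm were higher and Txnip lower. Srxn1 (116 UMIs with Inhbb and 740 without), Hmox1 (50 and 350) and Nqo1 (49 and 370) were under that minimum.

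In the control library the same split gave Txnip at 1605 CPM with and 1606 CPM without (0.00, -0.08 to 0.08), and Txnrd1 at 142 CPM and 148 CPM (-0.06, -0.32 to 0.20). Gclm was at 526 CPM and 373 CPM (0.50, 0.36 to 0.63), close to the metastatic ratio. Of the 6 members with at least 1000 UMIs, 0 was past 0.5 in either direction, against 1.99% of genes higher and 4.65% lower. Under that minimum, Hmox1 was at 0.84 (0.15 to 1.46) and Nqo1 at 0.85 (0.14 to 1.48), on 22 and 21 UMIs with Inhbb. Both intervals held 0 once barcodes carrying other cell types' markers were removed. Srxn1, also under the minimum, was at 0.13 (-0.47 to 0.67). Without barcodes carrying other cell types' markers, Gclm was past 0.5 in control too, at 0.57 (0.41 to 0.73), and the metastatic ratios were 0.75 for Txnrd1, 0.71 for Gclm and -0.40, short of the limit, for Txnip. The difference between the libraries in this split was not tested, and the part of the depth gap in it was not tested either.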

How the data were processed

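Gene-by-barcode UMI counts were deposited by the authors, made with Cell Ranger (3.1.0 in the matrix headers) and not normalized. The deposited counts were summed per library and class and divided by all UMIs of the class to give CPM. CPM carry exact Poisson intervals, log2 ratios exact conditional binomial intervals and shares Clopper-Pearson intervals, all at 95%. Differences between log2 ratios carry a normal interval. With 1 library per group no test was run. A gene counted as past the limit at a log2 ratio of 0.5 with at least 100 UMIs over both libraries, or at 1 in both libraries between classes. Doublets were not scored. Coverage of the ratio intervals was tested on simulated Poisson counts. These held no spread between mice or cells, so the test speaks to the calculation alone.

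Genes and lists were chosen with earlier results of these data known. Named were all 9 genes, pathway genes past 0.5, the 2 of highest mean CPM in each group, and each gene's 3 nearest patterns, of which those of Nfe2l2 are not reported here. Gene positions follow the GENCODE annotation of GRCm38. Software was Python 3.11.15, NumPy 2.4.6, SciPy 1.17.1, pandas 2.3.3 and edgeR 4.0.16 in R 4.3.3 for TMM factors. Thinning used seed 1. Alternatives varied the barcode filters, scaling, thinning and subtraction of free RNA.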

Additional observations from a re-analysis of the deposited data

Results flagged for a closer look

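Genes whose intervals of the log2 ratio (metastatic over control) lay on opposite sides of 0 in different classes are listed here. With 1 library per group the difference between classes was not tested over samples. Gclm was at 0.249 in aerocytes, against -0.344 in general capillary cells, -0.464 in arteries and -0.524 in veins. Gclc was at 0.0932 in aerocytes, against -0.269 in general capillary cells and -0.441 in veins. Nfe2l2 was at 0.0984 in aerocytes and -0.0569 in general capillary cells.

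Kept barcodes that met the rule of no class entered no comparison above. In these, Txnrd1 had a log2 ratio of 0.391 (237 control and 363 metastatic UMIs in 394 and 466 barcodes), whereas it was at -0.257 in general capillary cells. The composition of these barcodes was not tested.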

How the results depend on the processing

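No paired analysis was possible because each group was 1 library. Directions given here are of summed counts, and the depth limits arteries most, where Hmox1 rests on 9 and 5 UMIs. Of 254 summary values under alternatives 32 moved. Of single genes with a log2 ratio of 0.5 or more in size at any number of UMIs, 1 changed sign: Srxn1 in veins, on 26 and 15 UMIs, was at 0.114 with barcodes thinned to 2000 UMIs. With the same thinning Gclc in veins was at 0.456. The cause was not tested.

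Subtracting the profile of barcodes with 11 to 50 UMIs, scaled by red cell, epithelial and neutrophil genes, moved most. It put the free share of UMIs in control general capillary cells at 84.1%, whereas Col1a1 in the same profile allowed 0.253%. This profile gave 2 members higher and 3 lower in general capillary cells, 2 higher and a median of -0.306 in aerocytes, 3 lower in veins, and in the pathway a median of -0.316, 9 higher and 13 lower. It shifted the median of all genes in general capillary cells to -0.12, put Gclm at -1.18 there and at -0.303 in aerocytes, and gave no median in general capillary cells or veins, where a member was left at 0. With the profile scaled by the lowest gene of all lists of other cell types, chosen after seeing the data, Gclm was at 0.249 in aerocytes. Over the other alternatives Txnip lay between -0.656 and -0.57 in general capillary cells and Gclm between 0.205 and 0.268 in aerocytes.

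In aerocytes 1 member (Hmox1) was past 0.5 higher without barcodes carrying other cell types' markers and 1 with thinning. In arteries 4 were lower with barcodes of several classes kept, the median was -0.423 without the top 5% of UMIs, and with no gene filter 1 was higher and 5 lower. In veins 2 were lower without barcodes of the other library, with TMM scaling and with no gene filter, 0 without the top 5% of UMIs and with the mean of barcodes, and 0 were higher with thinning. Between classes 1 member (Gclm) was 2-fold lower in veins with barcodes of several classes kept. Of the shares in general capillary cells, 1 (Sod2) was higher with parted intervals before thinning.

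Pathway genes past 0.5 higher numbered 1 without other cell types' markers, and 5 without the top 5% of UMIs and with the mean of barcodes. Those lower numbered 3 with at least 1500 genes, without other cell types' markers, with TMM scaling and with the median of ratios, and 2 with the mean of barcodes, thinning and no gene filter.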
